A study of Homo sapiens with 8 samples.

Results

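The BCL2 family genes described here were the 10 genes BCL2, BCL2L1, MCL1 and BCL2A1 (anti-apoptotic), BCL2L11, BBC3, PMAIP1 and BID (BH3-only), and BAX and BAK1 (effectors). They were taken by gene symbol from tables of 64252 genes, and each of the 10 symbols matched 1 gene. The tables came from RNA-seq of the lines 6T-CEM and J.gamma1, human T-cell acute lymphoblastic leukemia (T-ALL) lines. The first descends from CCRF-CEM and the second from Jurkat. Cells of each line carried either a control short hairpin RNA (sh-NC) or a short hairpin RNA against LDB1 (sh-LDB1), delivered with lentivirus from the pLKO.1 vector, and infected cells were selected with puromycin. Both control and knockdown cells had therefore been infected and selected. Each of the 4 groups had 2 libraries, 8 in all. The sources used here do not name the hairpin that the sequenced cells carried, and nothing states that replicates came from separate infections, so p-values measure the spread between these libraries, which may be technical.

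The BCL2 family decides whether the outer mitochondrial membrane stays intact. Anti-apoptotic members hold the effectors BAX and BAK1 in check, BH3-only members bind and block the anti-apoptotic members or activate the effectors directly, and activated effectors form pores that release cytochrome c and start the caspase cascade. T-ALL cells are known to differ in whether they rely on BCL2, on BCL-XL (the main product of BCL2L1) or on MCL1. LDB1 is an adaptor protein that joins LIM-domain proteins and transcription factors at enhancers.

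The proteins of both sides meet through the BH3 motif, a short helix. Its core is encoded by 27 bases, given here 5′ to 3′ on the coding strand of the GENCODE canonical transcript from hg38. They are shown because this motif is what places members of all 3 roles in 1 family. The capitals mark the glycine or alanine codon and the aspartate codon at the centre of the motif, and each stretch starts with a leucine codon 4 codons upstream of the glycine or alanine codon.
BCL2: ctccgccaggccGGCGACgacttctcc
BCL2L1: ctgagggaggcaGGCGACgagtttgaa
MCL1: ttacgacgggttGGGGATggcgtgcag
BCL2L11: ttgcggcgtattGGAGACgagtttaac
BBC3: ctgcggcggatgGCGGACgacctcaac
PMAIP1: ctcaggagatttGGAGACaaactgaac
BID: ctcgcccaggtcGGGGACagcatggac
BAX: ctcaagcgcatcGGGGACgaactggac
BAK1: ctcgccatcatcGGGGACgacatcaac

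The pattern was found 1 time in the coding sequence of 9 of the 10 genes. The coding sequence of BCL2A1 held no match, which says only that its letters differ there. Among the 9 stretches, pairs shared between 11 and 19 of 27 bases. BCL2L11 and BBC3 shared 19, as did PMAIP1 and BAX, and BID and BAK1. The stretches are exonic: BCL2 at chr18:63318352-63318378 in exon 2, BCL2L1 at chr20:31721925-31721951 in exon 2, MCL1 at chr1:150578868-150578894 in exon 1, and BID at chr22:17739418-17739444 in exon 4, all on the minus strand. BBC3 (chr19:47226582-47226608, exon 3) and BAK1 (chr6:33575390-33575416, exon 4) also lie on the minus strand. The stretches of BCL2L11 (chr2:111150103-111150129, exon 3), PMAIP1 (chr18:59902673-59902699, exon 2) and BAX (chr19:48955787-48955813, exon 3) lie on the plus strand.

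Libraries held between 26160492 and 30604977 counts. Levels are given as CPM, the count scaled to a common effective library size, which is the total count multiplied by edgeR's TMM factor. Within each group, log2 CPM of the replicate libraries correlated across genes with Pearson's r between 0.986 and 0.987. LDB1 itself fell to 33.1% of control in 6T-CEM, from 107 and 111 CPM to 37.0 and 35.0 CPM. The J.gamma1 level fell to 54.0% of control, from 60.2 and 58.8 CPM to 33.2 and 30.8 CPM. The labelled lineage matched its markers: 9 of 10 T-lineage genes were above 1 CPM in both groups of 6T-CEM and 10 of 10 in both groups of J.gamma1, with CD2 at about 0.4 CPM in 6T-CEM. The summed T-lineage level was higher with sh-LDB1, at 2039 to 2062 CPM against 1609 to 1669 CPM in 6T-CEM and 2523 to 2608 CPM against 2059 to 2113 CPM in J.gamma1, and its part in the results below was not tested. Single markers went both ways: CD3E had a higher mean in both lines (410 to 634 CPM in 6T-CEM and 463 to 887 CPM in J.gamma1), whereas LCK (759 to 581 CPM) and CD3D (364 to 313 CPM) had a lower one in J.gamma1, as did CD5 (84.8 to 58.1 CPM) in 6T-CEM. B-cell genes summed to at most 75.8 CPM and were nearly all CD79A, and the myeloid, erythroid and epithelial lists summed to at most 2.71, 0.630 and 2.39 CPM, with HBB at 0.

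BCL2 was the family member that fell most in both lines, and it fell further in J.gamma1. BCL2L1 fell in J.gamma1, and its level did not differ detectably in 6T-CEM. PMAIP1 and BAK1 rose in J.gamma1 while BAX fell there, and BID fell in 6T-CEM. Of the 9 members that passed the filter on low counts, 2 had an adjusted p under 0.05 in 6T-CEM (22.2%), both of them lower. In J.gamma1 6 of the 9 passed (66.7%), 2 upward and 4 downward. Over all genes tested, 31.3% had an adjusted p under 0.05 in 6T-CEM (15.1% higher and 16.2% lower) and 51.5% in J.gamma1 (25.0% higher and 26.5% lower), so the members' shares lie near the background. The background in 6T-CEM rests on 5023 called genes, and leaving out any 1 library lowered the number called in either line. Such fits leave 1 library in a group, so they cannot show whether a particular library sets the background. With a log2 fold change beyond 1 required as well, no member passed in 6T-CEM (background 5.13%, or 824 genes, against 510 genes with DESeq2) and BCL2 passed in J.gamma1 (background 13.9%). The median log2 fold change of the 9 members was 0.0012 for 6T-CEM and -0.14 for J.gamma1, against 0.00270 and -0.000247 over all genes tested. All p-values come from quasi-likelihood tests in edgeR, adjusted after Benjamini and Hochberg over all genes tested in that comparison. In bulk RNA, fewer cells that express a gene and less of its RNA per cell cannot be told apart.

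**Figure D1:**
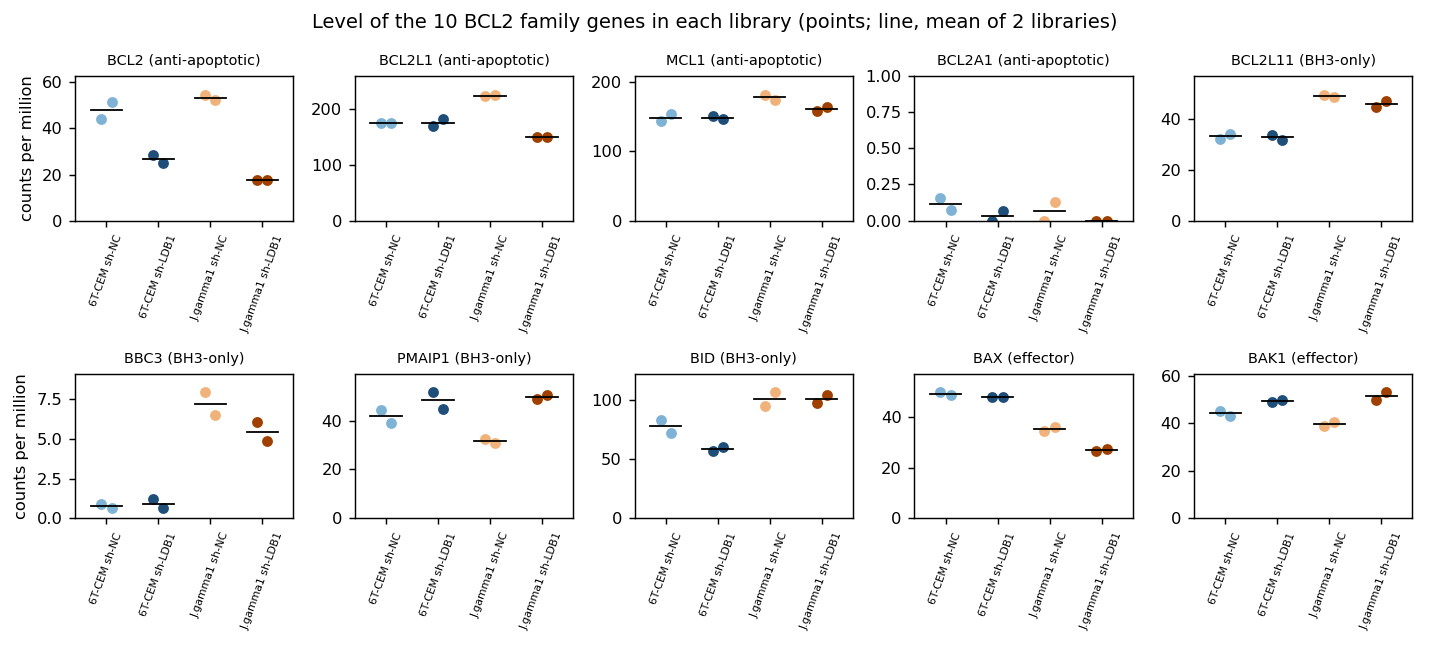
CPM (y axis, linear, from 0) of each of the 10 genes in the 4 groups; each point is 1 library and the line is the mean of 2 libraries. The sh-LDB1 points of BCL2 lie below the sh-NC points in both lines, those of BCL2L1 lie below only in J.gamma1, and BCL2A1 stays under 0.2 CPM in every library.

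BCL2 (ENSG00000171791, chr18:63123346-63320128, minus strand) encodes the founding anti-apoptotic member of the family, the target of venetoclax. In 6T-CEM it stood at 44.1 and 51.6 CPM with sh-NC and at 28.6 and 25.2 CPM with sh-LDB1. In J.gamma1 it stood at 54.6 and 52.1 CPM with sh-NC and at 17.6 and 17.8 CPM with sh-LDB1. Both sh-LDB1 libraries were below both sh-NC libraries in each line, with 720 and 835 counts or 492 and 523 counts where the knockdown libraries were lowest. The log2 fold change was -0.83 in 6T-CEM (SE 0.0993, adjusted p 2.34e-05, edgeR), which leaves 56.4% of control. It was -1.59 in J.gamma1 (SE 0.0781, adjusted p 6.37e-08, edgeR), which leaves 33.2% of control. In size of change, BCL2 exceeded 88.2% of the genes tested in 6T-CEM.

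BCL2L1 (ENSG00000171552, chr20:31664452-31723989, minus strand) encodes BCL-XL and, by alternative splicing, the pro-apoptotic BCL-XS, which gene counts cannot separate. In 6T-CEM its levels were 175 and 176 CPM with sh-NC and 169 and 182 CPM with sh-LDB1. The groups overlapped, and the log2 fold change was 0.0012 with a 95% interval from -0.12 to 0.13 (adjusted p 0.990, edgeR). In J.gamma1 the levels were 223 and 226 CPM with sh-NC, and both sh-LDB1 libraries stood at 151 CPM. There BCL2L1 fell by 0.57 on the log2 scale (SE 0.0459, adjusted p 2.58e-06, edgeR), to 67.4% of control. Of its exon bases, 1735 (41.3%) overlap ABALON, a long noncoding RNA on the opposite strand that was not analysed here. Whether the counting used the strand is not given in the sources used here, so reads of both genes may be mixed.

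MCL1 (ENSG00000143384, chr1:150560895-150579738, minus strand) encodes a short-lived anti-apoptotic protein whose amount is also set by protein turnover, which RNA counts do not show. In 6T-CEM it stood at 144 and 154 CPM with sh-NC and 151 and 147 CPM with sh-LDB1. These groups overlapped, with a log2 fold change of 0.0041 and a 95% interval from -0.12 to 0.13. In J.gamma1 it stood at 182 and 175 CPM with sh-NC and 158 and 164 CPM with sh-LDB1. It fell there by 0.14 on the log2 scale (SE 0.0491, adjusted p 0.0305, edgeR), to 90.5% of control. That call was weak: the adjusted p was 0.0763 without a composition factor (library size alone), 0.0509 with no filter on low counts, 0.169 without sh-NC replicate 1 and 0.147 without sh-LDB1 replicate 1. BCL2A1 (ENSG00000140379, chr15:79960892-79971196, minus strand) encodes a member induced by NF-kappa B in activated lymphocytes. It was near absent, with 4, 2, 0 and 2 counts in 6T-CEM and 0, 4, 0 and 0 counts in J.gamma1 in the order sh-NC replicates 1 and 2, then sh-LDB1 replicates 1 and 2. It did not pass the filter on low counts in either line, and it was not tested.

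The BH3-only genes did not move together. BCL2L11 (ENSG00000153094, chr2:111119378-111168444, plus strand) encodes BIM, which binds every anti-apoptotic member and can activate BAX and BAK1. In 6T-CEM its levels were 32.1 and 34.1 CPM with sh-NC and 33.7 and 31.8 CPM with sh-LDB1, and the log2 fold change was -0.012 (95% interval -0.20 to 0.18). In J.gamma1 they were 49.4 and 48.7 CPM with sh-NC and 44.7 and 46.8 CPM with sh-LDB1. Both knockdown libraries of J.gamma1 were the lower ones, but the log2 fold change of -0.095 (95% interval -0.25 to 0.060) had an adjusted p of 0.284 (edgeR). An overlap of 727 exon bases joins BCL2L11 to MIR4435-2HG on the opposite strand. The mean count of that gene was 294 with sh-NC and 500 with sh-LDB1 in 6T-CEM, and 132 and 312 in J.gamma1, and its part in the BCL2L11 counts was not tested.

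BBC3 (ENSG00000105327, chr19:47220822-47232766, minus strand) encodes PUMA, which binds all anti-apoptotic members. It was barely expressed in 6T-CEM, with 24 and 17 counts under sh-NC and 35 and 18 counts under sh-LDB1. The log2 fold change of 0.24 had a 95% interval from -0.79 to 1.27, which does not exclude a rise of 1 on the log2 scale. The J.gamma1 counts were 251 and 205 under sh-NC and 169 and 143 under sh-LDB1, which are 7.91, 6.50, 6.04 and 4.86 CPM. Both J.gamma1 knockdown libraries were lower, but the log2 fold change of -0.40 (SE 0.193) had an adjusted p of 0.109 (edgeR).

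PMAIP1 (ENSG00000141682, chr18:59899996-59904305, plus strand) encodes NOXA, which binds mainly MCL1 and promotes its degradation. In J.gamma1 it rose from 32.3 and 30.7 CPM with sh-NC to 48.9 and 50.3 CPM with sh-LDB1. The log2 fold change was 0.66 (SE 0.0739, adjusted p 2.88e-05, edgeR), or 1.58-fold, and the groups were far apart. In 6T-CEM it stood at 44.5 and 39.2 CPM with sh-NC and at 51.5 and 44.9 CPM with sh-LDB1. Both knockdown libraries were higher there too, by a log2 fold change of 0.21 (SE 0.0913) whose adjusted p was 0.0993 (edgeR).

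BID (ENSG00000015475, chr22:17734138-17774770, minus strand) encodes the member that caspase-8 cleaves, linking death receptors to the mitochondrion. In 6T-CEM it fell from 82.6 and 72.1 CPM with sh-NC to 56.3 and 59.9 CPM with sh-LDB1, to 75.3% of control (log2 fold change -0.41, SE 0.0792, adjusted p 0.00119, edgeR). The sh-NC libraries differed more from each other than the knockdown libraries did, and both were above them. In J.gamma1 its levels were 94.3 and 106 CPM with sh-NC and 97.0 and 104 CPM with sh-LDB1. The groups overlapped, with a log2 fold change of 0.0063 and a 95% interval from -0.14 to 0.15.

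The effectors moved in opposite directions in J.gamma1. BAX (ENSG00000087088, chr19:48954815-48961798, plus strand), whose protein moves from the cytosol to mitochondria when activated, fell there from 34.6 and 36.1 CPM to 26.8 and 27.6 CPM. The log2 fold change was -0.37 (SE 0.0775, adjusted p 0.00220, edgeR), which leaves 77.4% of control. In 6T-CEM the BAX levels were 49.8 and 48.6 CPM with sh-NC and 48.1 CPM in both sh-LDB1 libraries, a log2 fold change of -0.028 with a 95% interval from -0.19 to 0.13. BAK1 (ENSG00000030110, chr6:33572547-33580293, minus strand), whose protein sits in the mitochondrial membrane, rose in J.gamma1 from 38.8 and 40.4 CPM to 49.7 and 52.9 CPM. Its log2 fold change was 0.38 there (SE 0.0731, adjusted p 0.00127, edgeR), or 1.30-fold. In 6T-CEM BAK1 stood at 45.0 and 43.2 CPM with sh-NC and at 48.7 and 49.6 CPM with sh-LDB1. Both knockdown libraries were higher, and the log2 fold change of 0.16 had an adjusted p of 0.130 (edgeR).

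**Figure D2:**
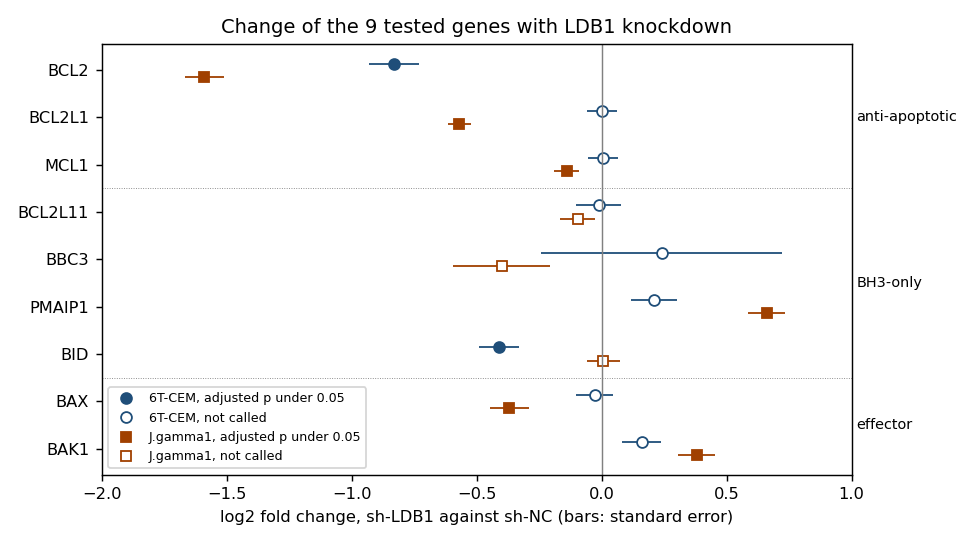
Log2 fold change of sh-LDB1 against sh-NC (x axis) for the 9 tested genes (y axis, by role), circles for 6T-CEM and squares for J.gamma1, filled where the adjusted p was under 0.05; bars are standard errors. BCL2 lies at -0.83 and -1.59, and BCL2L1 at 0.0012 and -0.57.

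The size of the change differed between the lines for 5 of the 9 tested members, by an interaction term in 1 edgeR fit to all 8 libraries. Over all genes tested, 24.4% had such a difference. BCL2 fell further in J.gamma1 by -0.76 on the log2 scale (SE 0.134, adjusted p 0.00142), and BCL2L1 by -0.57 (SE 0.0684, adjusted p 0.000104). These came with the smaller relative loss of LDB1 in J.gamma1, where the log2 fold change of LDB1 was -0.89 (SE 0.0751) against -1.60 (SE 0.0709) in 6T-CEM. J.gamma1 started from less LDB1, with a mean of 59.5 CPM against 109 CPM with sh-NC. The means left with sh-LDB1 were 32.0 CPM in J.gamma1 and 36.0 CPM in 6T-CEM. The part of knockdown depth or LDB1 level in the members' differences was not tested. MCL1 differed by -0.15 (95% interval -0.31 to 0.0096, adjusted p 0.167), BCL2L11 by -0.086 (95% interval -0.31 to 0.14) and BBC3 by -0.64 (95% interval -1.65 to 0.36). BAK1 differed by 0.22 (adjusted p 0.133), so its rise in J.gamma1 was not shown to exceed the value in 6T-CEM.

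The other differences were less secure. The PMAIP1 change was higher in J.gamma1 by 0.45 (SE 0.124, adjusted p 0.0197). Its adjusted p was 0.0788 without 6T-CEM sh-NC replicate 1, 0.0639 without 6T-CEM sh-LDB1 replicate 2, 0.0708 without J.gamma1 sh-NC replicate 2 and 0.0667 without J.gamma1 sh-LDB1 replicate 2. The BID change was higher in J.gamma1 by 0.41 (SE 0.113, adjusted p 0.0194), with 0.0780 without 6T-CEM sh-NC replicate 1, 0.0599 without 6T-CEM sh-LDB1 replicate 1, 0.0800 without J.gamma1 sh-NC replicate 1 and 0.0834 without J.gamma1 sh-LDB1 replicate 2. The BAX change was lower in J.gamma1 by -0.34 (SE 0.0974, adjusted p 0.0225). That call was lost without either replicate of 6T-CEM sh-NC (0.0541 and 0.0736), either replicate of 6T-CEM sh-LDB1 (0.0532 and 0.0581), J.gamma1 sh-NC replicate 2 (0.0760) or J.gamma1 sh-LDB1 replicate 1 (0.0659). With 1 library left out, the number of members with a difference ranged from 2 to 4. The fit without 6T-CEM sh-NC replicate 1 gave 2, and the fits without 6T-CEM sh-LDB1 replicate 1 or 2, J.gamma1 sh-NC replicate 2 or J.gamma1 sh-LDB1 replicate 2 gave 3.

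The lines also started from different levels. Between the sh-NC groups, 7 of the 9 tested members differed, where 65.7% of all genes tested did, in the same fit to 8 libraries. BBC3 was 9.24-fold higher in J.gamma1 (log2 difference 3.21, SE 0.329, adjusted p 2.97e-06), the widest gap among the members. BCL2L11 was 1.48-fold higher (adjusted p 2.12e-05), BID 1.30-fold (0.00126), BCL2L1 1.28-fold (3.83e-05) and MCL1 1.20-fold (0.000734). BAX stood at 0.718 of its 6T-CEM level (adjusted p 5.65e-05) and PMAIP1 at 0.753 (0.00142). BCL2 was similar, at 1.12-fold (log2 difference 0.16, 95% interval -0.042 to 0.36, adjusted p 0.150), although it passed the threshold without a composition factor (0.30, adjusted p 0.0130) and without 6T-CEM sh-NC replicate 2 (0.27, adjusted p 0.0438). BAK1 did not pass (adjusted p 0.0665).

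Levels of different genes can be compared only per length, so CPM was divided by kilobases of merged exons. On this scale BCL2L1 was the most abundant member in all 4 groups, with means of 41.9 and 41.8 in 6T-CEM (sh-NC and sh-LDB1) and 53.4 and 35.9 in J.gamma1. MCL1 was next, at means of 28.7 and 25.9 in J.gamma1 and between 23.1 and 24.8 in the libraries of 6T-CEM. BCL2 was far below both, at 3.79 and 2.13 in 6T-CEM and at 4.23 and 1.40 in J.gamma1.

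In 6T-CEM with sh-NC the order ran BCL2L1, MCL1, BAK1 (19.9), PMAIP1 (19.1), BAX (19.0), BID (17.5), BCL2L11 (4.91), BCL2 (3.79), BBC3 (0.244) and BCL2A1 (0.115). The libraries of BAK1 overlapped with those of PMAIP1, and those of PMAIP1 with those of BAX, while BAX and BID did not overlap. In J.gamma1 with sh-LDB1, BAK1 (23.2), BID (22.7) and PMAIP1 (22.7) overlapped, and BCL2 (1.40) stood below BBC3 (1.71). The order depended on the length used: per kilobase of the canonical transcript, BAX came second in 6T-CEM with sh-NC at 61.9, behind BCL2L1 at 68.3, where that transcript of BAX has 795 bases against 2587 bases of merged exons. BCL2L1 stayed first and BCL2 stayed between ranks 7 and 9 in all 4 groups under both lengths.

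Summed by role, the 4 anti-apoptotic genes went in J.gamma1 from 86.7 and 86.2 to 62.7 and 63.6 CPM per kilobase, and the 4 BH3-only genes went from 45.9 and 47.4 to 52.9 and 54.9. In 6T-CEM the anti-apoptotic sums were 68.6 and 71.0 with sh-NC against 66.9 and 69.0 with sh-LDB1. The BH3-only sums there were 44.1 and 39.5 against 41.7 and 39.0. Both sums thus overlapped between the 6T-CEM groups per kilobase of merged exons. The ratio of the anti-apoptotic to the BH3-only sum was 1.68 ± 0.172 (SD, n = 2) with sh-NC and 1.69 ± 0.116 with sh-LDB1 in 6T-CEM, and 1.85 ± 0.0481 and 1.17 ± 0.0203 in J.gamma1. These sums and ratios depend on the genes chosen, and BH3-only genes outside the list were left out. In J.gamma1 the means with sh-NC and sh-LDB1 were 23.8 and 17.0 for BAD, which fell. They were 7.84 and 10.1 for BMF, and 9.51 and 10.4 for BIK. The 6T-CEM means were 22.5 and 21.9 for BAD, and 8.51 and 11.3 for BIK. BCL2 was a small part of the anti-apoptotic sum, at most 5.77% in any library and 2.22% and 2.21% in J.gamma1 with sh-LDB1, while BCL2L1 made up between 56.4% and 62.8% over all 8 libraries. Of the BH3-only sum, PMAIP1 made up 32.2% and 29.7% in the J.gamma1 control libraries, against 42.3% and 41.9% after knockdown. In 6T-CEM it made up 46.2% and 45.4% in the controls, against 56.5% and 52.7% after knockdown. These shares are per kilobase of merged exons. Per kilobase of the canonical transcript, PMAIP1 made up 34.4% and 33.9% in the 6T-CEM controls and 45.0% and 41.0% after knockdown. The J.gamma1 shares on that length were 22.9% and 20.7% in the controls and 31.3% and 30.8% after knockdown.

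Whether the 6T-CEM BH3-only sums overlapped depended on the length. Per kilobase of the canonical transcript they did not overlap, at 68.2 and 60.8 with sh-NC against 60.3 and 57.7 with sh-LDB1. The effector sum also depended on the length. Per kilobase of merged exons its mean in J.gamma1 was 31.6 with sh-NC and 33.7 with sh-LDB1, and per kilobase of the canonical transcript it was 62.7 and 57.9, so the direction turned, with BAK1 up and BAX down in counts either way. The ratio of BCL2 to BCL2L11, a pair whose proteins bind each other, went from 0.772 ± 0.0526 to 0.439 ± 0.0214 (SD, n = 2) in 6T-CEM. The J.gamma1 values were 0.581 ± 0.0139 with sh-NC and 0.207 ± 0.00520 with sh-LDB1. These ratios are per kilobase of merged exons. Per kilobase of the canonical transcript the means (sh-NC, then sh-LDB1) were 1.07 and 0.608 in 6T-CEM, and 0.806 and 0.286 in J.gamma1. Sums and ratios of RNA are descriptions of these libraries and carry no test.

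**Figure D3:**
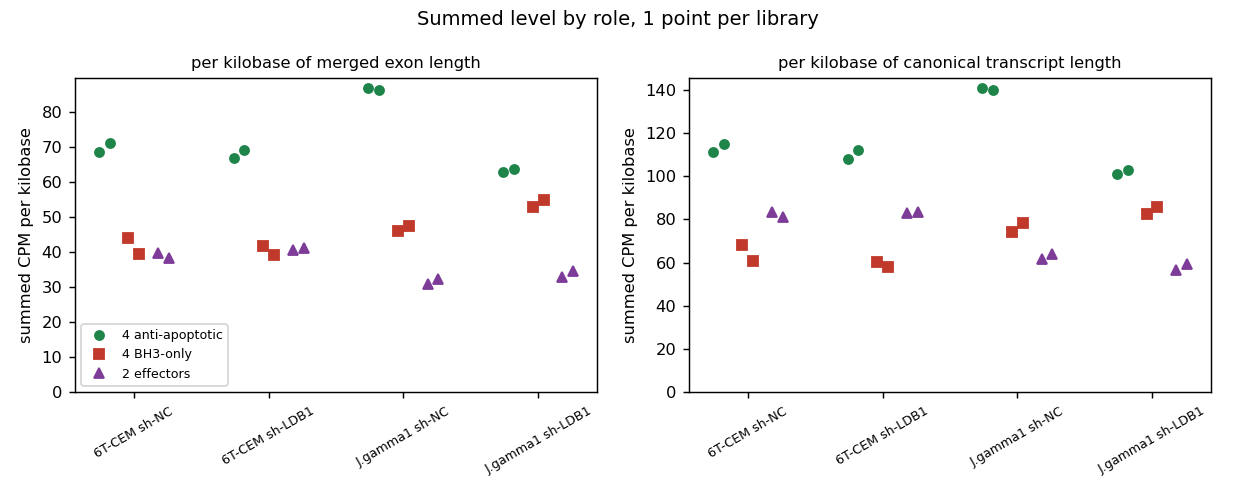
Summed level of the 4 anti-apoptotic, 4 BH3-only and 2 effector genes (y axis, CPM per kilobase, from 0) in each library of the 4 groups, per kilobase of merged exons (left) and of the canonical transcript (right). In J.gamma1 the anti-apoptotic points fall with sh-LDB1 and the BH3-only points rise in both panels, while the effector points lie higher on the left and lower on the right.

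Outside the 10 genes, 15 further family members were listed, of which 11 passed the filter in 6T-CEM and 13 did so in J.gamma1. In 6T-CEM 3 rose and 2 fell (median log2 fold change 0.18), and in J.gamma1 5 rose and 3 fell (median 0.13). The called shares were 45.5% and 61.5%, against 31.3% and 51.5% of all genes tested in 6T-CEM and J.gamma1. BCL2L10 had 0 counts in every library and BCL2L14 at most 4.

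BMF encodes a BH3-only protein that is tethered to the cytoskeleton and released by stress or loss of anchorage. In 6T-CEM it went from 2 and 3 counts with sh-NC to 52 and 51 counts with sh-LDB1, a ratio of 18.9 with a 95% counting interval from 7.83 to 59.4 (adjusted p 4.45e-05, edgeR). In J.gamma1, where it was well expressed, it rose from 42.8 and 42.6 CPM to 51.1 and 58.5 CPM (log2 fold change 0.37, SE 0.0794, adjusted p 0.00276). Even after the rise the 6T-CEM level was 1.78 CPM, far under that of J.gamma1.

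BNIP3L, a mitophagy receptor related to the BH3-only group, fell from 116 and 106 CPM to 74.1 and 71.1 CPM in 6T-CEM, a log2 fold change of -0.61 (adjusted p 9.16e-06). In J.gamma1 it fell from 213 and 208 CPM to 66.6 and 74.0 CPM (log2 fold change -1.58, SE 0.0588, adjusted p 1.09e-08), and the difference between the lines was -0.97 (adjusted p 1.93e-05). The fall in J.gamma1 was thus close in size to that of BCL2. BNIP3L shares 330 exon bases with PNMA2 on the opposite strand, whose mean count was 1226 (sh-NC) and 970 (sh-LDB1) in 6T-CEM, then 2470 and 1120 in J.gamma1, and its part in the BNIP3L counts was not tested. BNIP3, its relative, did not pass in either line (-0.084 and 0.13).

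BECN1, an autophagy protein that binds BCL2 through a BH3 motif, fell in 6T-CEM by 0.26 on the log2 scale (adjusted p 0.0182) and in J.gamma1 by 0.48 (adjusted p 8.85e-05). Its 6T-CEM call was lost without a composition factor (adjusted p 0.0519), with DESeq2 (0.0919), and without sh-NC replicate 1 (0.129), sh-NC replicate 2 (0.0631) or sh-LDB1 replicate 2 (0.0990). On the opposite strand, BECN1 shares 300 exon bases with PSME3 and 795 with CNTD1. The mean count of PSME3 was 7414 (sh-NC) and 6720 (sh-LDB1) in 6T-CEM, then 5646 and 5829 in J.gamma1. That of CNTD1 was at most 13.0 in any group. The part of either gene in the BECN1 counts was not tested. BAD, a BH3-only protein controlled by phosphorylation, fell in J.gamma1 from 38.6 and 42.8 CPM to 27.7 and 30.5 CPM (log2 fold change -0.48, adjusted p 0.000775, edgeR). The BAD value in 6T-CEM was -0.031. BAD shares 404 exon bases (23.7% of its own) with GPR137 on the opposite strand, whose mean count was 491 (sh-NC) and 552 (sh-LDB1) in 6T-CEM, then 1086 and 607 in J.gamma1, and its part in the BAD counts was not tested. The BAD difference of -0.45 (adjusted p 0.0214) was lost without 6T-CEM sh-NC replicate 2 (0.0912), 6T-CEM sh-LDB1 replicate 2 (0.0531), J.gamma1 sh-NC replicate 2 (0.0863) or J.gamma1 sh-LDB1 replicate 1 (0.0822).

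BCL2L12 rose in both lines, by 0.49 in 6T-CEM (adjusted p 0.00139) and 0.79 in J.gamma1 (adjusted p 8.10e-06). It shares 734 exon bases with IRF3 on the opposite strand, whose mean count was 1144 and 1416 in 6T-CEM and 1414 and 1453 in J.gamma1. BCL2L13 rose in J.gamma1 (0.39, adjusted p 0.000689), with 0.18 in 6T-CEM (adjusted p 0.0936, and 0.0432 without a composition factor). BNIP2 rose in J.gamma1 (0.35, adjusted p 0.000169) and in 6T-CEM (0.20, adjusted p 0.0200), where the call was lost with no filter on low counts (0.0557) and without sh-NC replicate 1 (0.104), sh-NC replicate 2 (0.0886) or sh-LDB1 replicate 1 (0.142). BCL2L15 was rare, with 11 and 17 counts in J.gamma1 sh-NC and 52 and 48 counts in J.gamma1 sh-LDB1 (log2 fold change 1.97, SE 0.412, adjusted p 0.00215). BIK did not pass in 6T-CEM (0.41, adjusted p 0.0628, and 0.0463 without a composition factor) or in J.gamma1 (0.13). BCL2L2, which encodes the anti-apoptotic BCL-w, stood at 204 to 246 counts in 6T-CEM (0.042) and at 11 to 30 counts in J.gamma1, where its value of -0.82 (SE 0.482) did not pass. BCL2L2 shares 815 exon bases with BCL2L2-PABPN1 on the same strand. The mean count of that gene was 1.00 (sh-NC) and 31.5 (sh-LDB1) in 6T-CEM, then 0 and 22.5 in J.gamma1. Its part in the BCL2L2 counts was not tested. HRK and BOK had at most 25 counts in any library, and neither passed in J.gamma1 (0.0099 and -0.16).

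Downstream of the family, the apoptosome forms when cytochrome c binds APAF1 and recruits caspase-9. Of 13 genes of the apoptosome, caspases and mitochondrial release factors, 2 rose and 4 fell in 6T-CEM (median -0.17) and 3 rose and 6 fell in J.gamma1 (median -0.17). That was 46.2% and 69.2% of the list, against 31.3% and 51.5% of all genes tested. CASP9, the initiator caspase, fell in J.gamma1 from 21.6 and 19.4 CPM to 9.93 and 9.27 CPM (log2 fold change -1.09, SE 0.120, adjusted p 2.63e-05). In 6T-CEM its levels were 8.01 and 6.57 CPM with sh-NC and 3.95 and 5.95 CPM with sh-LDB1 (-0.55, adjusted p 0.0757, and -0.88 with 0.0260 without sh-LDB1 replicate 2). The difference between the lines was -0.53 (adjusted p 0.182, and -0.80 with 0.0340 without 6T-CEM sh-LDB1 replicate 1).

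Of 6 inhibitors of apoptosis, proteins that restrain caspases or support division, 2 rose and 1 fell in 6T-CEM (median 0.12), and 2 rose and none fell in J.gamma1 (median 0.0051). Their log2 fold changes ranged from -0.72 to 0.47 in 6T-CEM, so the largest change there was a fall. The J.gamma1 range was -0.22 to 0.54. In 6T-CEM 50.0% were called, where 31.3% of all genes tested were, and in J.gamma1 33.3%, below the 51.5% of all genes tested. BIRC5, which encodes survivin and acts in mitosis, rose from 226 CPM in both sh-NC libraries to 305 and 321 CPM in 6T-CEM, a log2 fold change of 0.47 (adjusted p 1.11e-05). The J.gamma1 value was 0.14 (adjusted p 0.0220), a call lost with DESeq2 (0.0717) and without sh-NC replicate 1 (0.107), sh-NC replicate 2 (0.0671) or sh-LDB1 replicate 2 (0.121), and the difference between the lines was -0.33 (adjusted p 0.00273). XIAP, which blocks caspases directly, rose in J.gamma1 from 66.8 and 56.4 CPM to 90.7 and 87.7 CPM (0.54, adjusted p 0.000336) and in 6T-CEM from 55.2 and 59.7 CPM to 84.2 and 67.7 CPM (0.41, adjusted p 0.0111). Its 6T-CEM call was lost without sh-NC replicate 1 (0.147), sh-NC replicate 2 (0.0710) or sh-LDB1 replicate 1 (0.0678).

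DNA damage can induce BBC3, PMAIP1 and BAX together with genes of cell-cycle arrest and stress defence. Of 12 tested genes that DNA damage can induce, 4 rose and 4 fell in 6T-CEM (median 0.13), and 5 rose and 4 fell in J.gamma1 (median 0.10). Called genes made up 66.7% in 6T-CEM and 75.0% in J.gamma1 (31.3% and 51.5% over all genes tested). The genes past a log2 fold change of 1 went in different directions. AEN, an apoptosis-enhancing nuclease, rose in J.gamma1 from 22.8 and 22.9 CPM to 45.4 and 49.5 CPM (1.06, adjusted p 1.51e-06), with 0.045 in 6T-CEM and a difference of 1.01 (adjusted p 5.36e-05). TP53I3 fell in J.gamma1 (-1.29, adjusted p 9.85e-06) and in 6T-CEM (-0.53, adjusted p 0.0196), with a difference of -0.77 (adjusted p 0.0116). The 6T-CEM call of TP53I3 was lost with DESeq2 (0.106) and without sh-NC replicate 1 (0.0712), sh-NC replicate 2 (0.120) or sh-LDB1 replicate 2 (0.102).

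CDKN1A, which encodes the cell-cycle inhibitor p21, fell in J.gamma1 from 152 and 177 counts to 79 and 65 counts (-1.04, adjusted p 0.00305). The 6T-CEM counts were 9 and 15 under sh-NC and 41 and 30 under sh-LDB1 (1.43, SE 0.479, adjusted p 0.0336). That 6T-CEM call was lost with DESeq2 (0.191), with no filter on low counts (0.0674), and without any 1 of the 4 libraries (0.181 and 0.0642 without sh-NC replicates 1 and 2, and 0.213 and 0.0709 without sh-LDB1 replicates 1 and 2). The opposite directions gave a difference of -2.48 (SE 0.463, adjusted p 0.00215).

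Among 14 transcription factors known to regulate members of the family, 2 rose and 8 fell in 6T-CEM (median -0.32), and 3 rose and 7 fell in J.gamma1 (median -0.42). In either direction, 71.4% of these factors were called in each line, where the background was 31.3% for 6T-CEM and 51.5% for J.gamma1. Lower calls covered 8 of the 14 factors for 6T-CEM against a background of 16.2%, and 7 of the 14 for J.gamma1 against 26.5%. This list, like the others, was chosen with earlier results of these data known. Its excess over the background is therefore not evidence that these regulators respond more than other genes. MYB, which activates BCL2 in several leukemias, fell from 722 and 710 CPM to 376 and 366 CPM in 6T-CEM (-0.94, SE 0.0508, adjusted p 7.30e-09). In J.gamma1 it fell from 709 and 660 CPM to 108 and 113 CPM (-2.63, SE 0.0531, adjusted p 1.93e-10), and the difference between the lines was -1.69 (adjusted p 6.23e-08). MYB and BCL2 thus both fell in both lines and both fell further in J.gamma1, and the part of MYB in the BCL2 levels was not tested.

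STAT5A and STAT5B, signal transducers that drive BCL2 and BCL2L1 downstream of cytokine receptors, also fell in both lines. STAT5B went from 158 and 178 CPM to 91.7 and 94.3 CPM in 6T-CEM (-0.85, adjusted p 3.07e-07) and from 135 and 134 CPM to 52.6 and 56.2 CPM in J.gamma1 (-1.30, adjusted p 2.82e-08). STAT5A went from 261 and 272 CPM to 119 and 123 CPM in 6T-CEM (-1.14, adjusted p 3.78e-09) and from 17.3 and 16.8 CPM to 4.61 and 6.18 CPM in J.gamma1 (-1.65, adjusted p 9.54e-06). The genes share 415 exon bases on opposite strands. The fall was deeper in J.gamma1 by -0.44 for STAT5B (adjusted p 0.00344) and by -0.51 for STAT5A (adjusted p 0.0122, and 0.0676 without J.gamma1 sh-LDB1 replicate 1). E2F1, which activates BBC3, PMAIP1 and BCL2L11 as well as cell-cycle genes, fell by 0.29 on the log2 scale in 6T-CEM (adjusted p 0.00310, and 0.0572 without sh-NC replicate 1) and by 1.13 in J.gamma1 (adjusted p 1.42e-07), with a difference of -0.84 (adjusted p 4.05e-05).

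**Figure D4:**
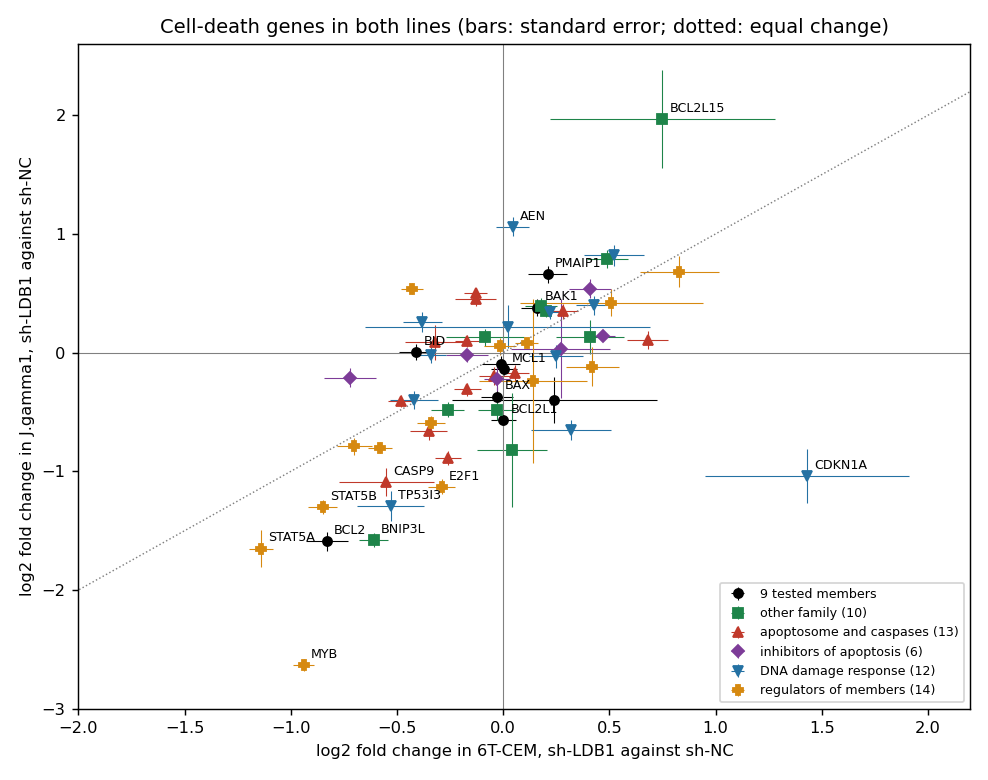
Log2 fold change of sh-LDB1 against sh-NC in 6T-CEM (x axis) and J.gamma1 (y axis) for the 9 tested family genes and the listed cell-death genes tested in both lines; bars are standard errors, the dotted line marks equal change, and BMF is left out because its 6T-CEM control has 2 and 3 counts. BCL2, BNIP3L and MYB lie below the dotted line with both values negative, and CDKN1A lies at 1.43 and -1.04.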

How the data were processed

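RNA was extracted with TRIzol and libraries were made with an Illumina TruSeq RNA kit. The authors used HISAT2 2.2.0 for alignment (hg38, read pairs) and StringTie for quantification, and deposited raw whole-number counts per gene in 1 table per cell line, without normalization or pooling. The annotation release, the strand setting and the treatment of reads shared by genes are not given in the sources used here.

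The 10 genes and all lists were chosen with earlier results of these data known. Some listed genes are not reported here. Symbols, coordinates and exons come from GENCODE release 44. Each line was fitted by itself with edgeR 4.0.16 (R 4.3.3; quasi-likelihood, robust, TMM, filterByExpr, Benjamini-Hochberg), and differences in 1 fit to 8 libraries. Calls needed an adjusted p under 0.05. The study used DESeq2, here (1.42.0) an alternative. Other genes named are family members that passed the filter in either line and, in each other list, those with log2 fold change beyond 1 (at most 5), or else the smallest adjusted p in each line. The fits were tested on simulated data. Alternatives were RLE or no normalization factors, no filter, DESeq2, a replicate block, 8-library fits, each library left out, and canonical transcript lengths. Fits without 1 library assume that the lone library varies like the others. Counting intervals cover counting error only.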

Additional observations from a re-analysis of the deposited data

Results flagged for a closer look

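The change with LDB1 knockdown differed between the lines, by an interaction term in an edgeR fit to 8 libraries with an adjusted p under 0.05, for 17 of the genes named. Over all genes tested, 24.4% had such a difference. The named genes of the lists outside the family were picked by their change in these same data. Their number is therefore no result about the named genes as a set. Each value is the log2 fold change in J.gamma1 minus that in 6T-CEM. Among the family members the values were -0.76 for BCL2, -0.57 for BCL2L1, 0.45 for PMAIP1, 0.41 for BID and -0.34 for BAX. The differences of PMAIP1, BID and BAX were each lost when 1 of several libraries was left out, and those of BCL2 and BCL2L1 were kept in all 8 such fits. Outside the 10 members the values were -3.82 for BMF, -0.97 for BNIP3L, -0.45 for BAD, -0.33 for BIRC5, -2.48 for CDKN1A, -0.77 for TP53I3, 1.01 for AEN, -1.69 for MYB, -0.51 for STAT5A, -0.44 for STAT5B and -0.84 for E2F1. The BMF value rests on 2 and 3 counts in the 6T-CEM control libraries and depends on the prior count of the fit. LDB1 itself differed by 0.70, its relative loss being smaller in J.gamma1. Its mean level was 59.5 CPM in J.gamma1 sh-NC and 109 CPM in 6T-CEM sh-NC, and 32.0 and 36.0 CPM with sh-LDB1. Groups of 2 libraries are too small for a test of outlying libraries.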

How the results depend on the processing

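The falls of BCL2 in both lines, of BID in 6T-CEM, and of BCL2L1 and BAX in J.gamma1, and the rises of PMAIP1 and BAK1 in J.gamma1, kept their direction and an adjusted p under 0.05 under every alternative run. The replicate numbers did not pair the libraries (correlations of deviations of -0.0130 and -0.0143 in the 6T-CEM and J.gamma1 lines). With the replicate number as a block the 6T-CEM comparison called 5070 genes and the J.gamma1 comparison 8785, against 5023 and 8870 without it, and 2 and 6 members were called as before, while CDKN1A in 6T-CEM was lost (adjusted p 0.0505). With DESeq2, 510 genes passed both thresholds in 6T-CEM against 824 with edgeR. With 1 library left out, 6T-CEM gave between 3234 and 3875 genes, the lowest without sh-NC replicate 1 and 3339 without sh-NC replicate 2, and differences between the lines were called for 2 to 4 members. Per kilobase of the canonical transcript the ratio of anti-apoptotic to BH3-only sums was 1.86 in 6T-CEM sh-LDB1 and 1.21 in J.gamma1 sh-LDB1. The causes were not tested. Values that changed sign belonged to changes that were not called. In 6T-CEM, with library size alone they were 0.029 for BCL2L11, 0.012 for BAX and 0.0084 for BAD. With no filter on low counts they were -0.0056 for BCL2L1 and -0.0028 for MCL1. With DESeq2 it was 0.0057 for BCL2L11, and with all 8 libraries fitted -0.0028 for BCL2L1. With each 6T-CEM library left out in turn the values ranged from -0.057 to 0.058 for BCL2L1, -0.043 to 0.059 for MCL1, -0.053 to 0.038 for BCL2L11, -0.29 to 0.63 for BBC3, -0.018 to 0.11 for BCL2L2, -0.11 to 0.063 for BAD and -0.019 to 0.12 for AEN. In J.gamma1 DESeq2 gave -0.017 for BID and -0.016 for HRK, the replicate block gave -0.0015 for HRK, and fits without 1 library ranged from -0.079 to 0.089 for BID, -0.33 to 0.29 for HRK and -0.36 to 0.015 for BOK. The XIAP difference between the lines ranged from -0.0055 to 0.30. Genes with few counts (BCL2A1, HRK, BOK, BCL2L15, and BBC3, BMF and CDKN1A in 6T-CEM) are limited by depth.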
